A study of Homo sapiens with 12 samples.

Results

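The 5.8S rRNA and its listed 2'-O-methylation sites were followed through 4 groups of a RiboMeth-seq study. All positions that the deposited tables file under 5.8S were taken, which gave 154 of the 8164 positions of 10 RNAs. The authors' overview lists 2 methylated sites on this RNA, Um14 and Gm75, of 141 sites in all. A score from 6 neighbours on each side could be formed at 142 of the 154 positions. The cells were HEK293 Flp-In T-REx, derived from human embryonic kidney and carrying a site into which inducible transgenes can be inserted. The groups were wild-type cells (WT), cells with a knockout of GPATCH4 (GPATCH4 KO), wild-type cells transfected with non-target siRNA (siNT) and wild-type cells transfected with siRNA against DHX15 (siDHX15), with 3 libraries each. The titles call the 3 libraries of a group biological replicates. Whether the knockout is 1 clone is not given in the sources used here, and the assay did not measure the mRNA of GPATCH4 or DHX15.

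In 2'-O-methylation a methyl group is added to the ribose of a nucleotide, in rRNA mostly by the methyltransferase fibrillarin within box C/D ribonucleoproteins whose snoRNA base-pairs with the target. The 5.8S rRNA is cut from the same precursor as the 18S and 28S rRNAs and base-pairs with 28S rRNA in the large ribosomal subunit. SNORD71 is known as the guide of Um14 and SNORD96A as a guide of Gm75 in human cells. DHX15 is a DEAH-box RNA helicase with roles in splicing and ribosome assembly. GPATCH4 belongs to the G-patch proteins, many of which bind such helicases and stimulate them. In RiboMeth-seq the RNA is partly hydrolysed with alkali and the fragment ends are counted. The ribose methyl group protects the adjoining bond, and fewer reads end at a methylated position than around it.

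The 154 bases of the tables are printed here so that both sites can be seen in their context, with the methylated bases in capitals.
5.8S rRNA, positions 1 to 154: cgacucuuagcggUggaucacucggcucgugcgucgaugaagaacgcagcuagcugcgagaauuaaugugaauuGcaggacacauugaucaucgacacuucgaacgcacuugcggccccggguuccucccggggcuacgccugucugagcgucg
Um14 with 6 bases on each side, positions 8 to 20: uagcggUggauca
Gm75 with 6 bases on each side, positions 69 to 81: ugaauuGcaggac
The sequence holds 31 A, 44 C, 45 G and 34 U, so that 57.8% of the bases are G or C. The RefSeq annotation of GRCh38.p14 holds 5 genes of this rRNA, of which 3 lie on chromosome 21. RNA5-8SN1 is at chr21:8439822-8439978, RNA5-8SN2 at chr21:8212571-8212727 and RNA5-8SN3 at chr21:8395606-8395762. Each of these is annotated as an rRNA gene of 157 bases, against 154 in the tables. Read ends cannot be assigned to one copy, and positions below are counted from the first base of the sequence shown.

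The score used throughout is the RMS score, a fraction. It is 1 minus the read ends at a position over the weighted mean of its 6 neighbours on each side, and negative values are set to 0. A score of 1 means that no read ended at the position, and a score of 0 means that at least as many reads ended there as at the neighbours. Read 5' ends and read 3' ends are added before the score is formed. Libraries held between 875096 and 16314082 read ends, of which 17204 to 510093 were on 5.8S. The replicates numbered 3 stood apart on this RNA in all 4 groups, as described with the placement of read ends, and results are therefore also given without them where a call or a direction changed.

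Gm75 was strongly protected in control cells and lost part of its protection in the knockout. Its score was 0.945, 0.936 and 0.954 in the 3 WT libraries and 0.779, 0.758 and 0.783 in the 3 knockout libraries. It was 0.973, 0.971 and 0.956 with non-target siRNA and 0.922, 0.952 and 0.935 with siRNA against DHX15. The knockout libraries all lay below every other library, and every mean of the other 3 groups was at least 0.936. The means were 0.967 ± 0.00928 in siNT, 0.945 ± 0.00916 in WT, 0.936 ± 0.0151 in siDHX15 and 0.773 ± 0.0132 in the knockout (SD, n = 3 each). In this order of levels, WT and siDHX15 overlapped in their libraries, and the siNT libraries all lay above the WT libraries, a difference that did not pass the adjusted test given below. Among the 141 sites Gm75 ranked 35th from the highest mean in WT, 89th in the knockout, 22nd in siNT and 21st in siDHX15.

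The fall in the knockout passed the test across all sites. The score was lower by 0.172 than in WT (limma difference -0.172, SE 0.0144, 95% interval -0.204 to -0.139), with a Benjamini-Hochberg adjusted p of 4.97e-06 over 141 sites. As background, 35 of the 141 sites were lower in this comparison, which is 24.8%, and 0.709% were higher. The decrease at Gm75 was among the smaller ones, ranking 31st of these 35 by size. The median difference was -0.331 over the 35 sites and -0.00607 over all 141. Without the replicates numbered 3 the difference was -0.172, with a limma adjusted p of 0.00144.

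Under siRNA against DHX15 the decrease at Gm75 was small and did not pass. The libraries of the 2 groups did not overlap, but the limma difference was -0.0308 (SE 0.0144, 95% interval -0.0631 to 0.00158), with an adjusted p of 0.137. In this comparison 31.2% of the 141 sites were called lower, and the median difference of -0.0569 over all of them was larger in size than the one at Gm75. On 2 other scales the decrease was called. With edgeR on the counts the log2 ratio of read ends to neighbours at Gm75 was higher by 0.92 in siDHX15 (adjusted p 0.0346 over the sites), and limma on the logit of the score gave an adjusted p of 0.0353. The siNT libraries held 10, 10 and 15 read ends at Gm75 and the siDHX15 libraries 13, 16 and 38.

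The knockout effect and the DHX15 effect at Gm75 differed from each other. Knockout minus WT was more negative than siDHX15 minus siNT (limma difference of differences -0.141, SE 0.0204, 95% interval -0.187 to -0.0951, adjusted p 0.000378). Over all sites this contrast was called in 37.6%, in 17% with the more negative effect in the knockout and in 20.6% with the more negative effect in siDHX15. The call depended on the scale, since on the edgeR log2 scale the adjusted p was 0.0548 and on the limma logit scale 0.0507. WT and siNT, the controls of the 2 experiments, differed at Gm75 by 0.0219 (95% interval -0.0105 to 0.0542, limma adjusted p 0.739), and 0% of the sites were called between them.

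**Figure D1:**
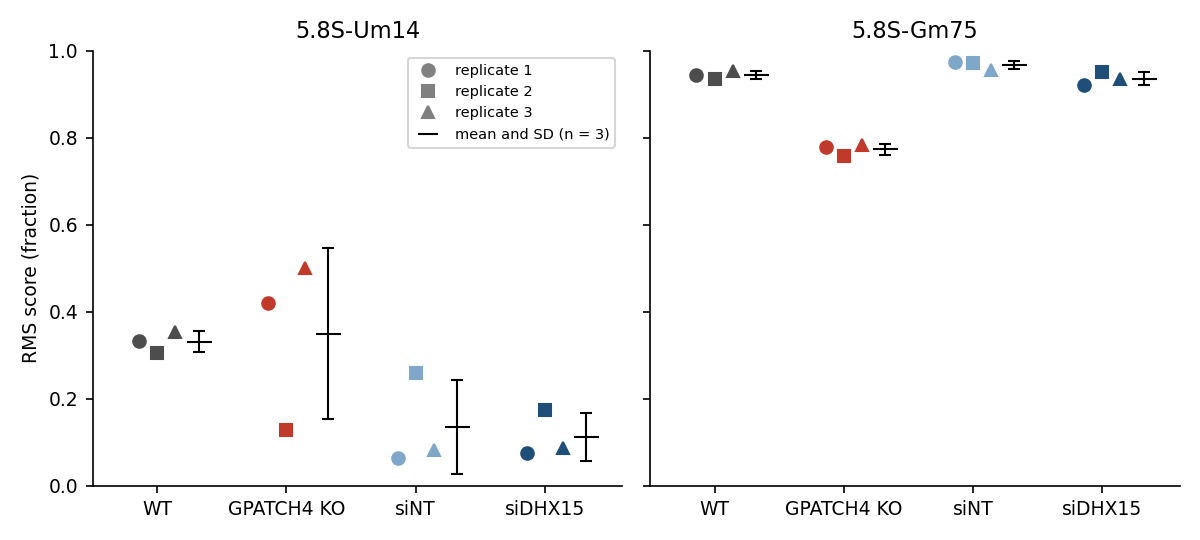
RMS score of each library at Um14 (left) and Gm75 (right) in the 4 groups, with the replicate number as the marker and the mean and SD of 3 libraries beside it. At Gm75 the 3 knockout libraries sit between 0.758 and 0.783, below all others, whereas the libraries at Um14 spread from 0.0642 to 0.501. At Um14 the knockout overlaps WT and siDHX15 overlaps siNT, while the WT libraries all lie above the siNT libraries.

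Relative to the neighbours, more reads ended at Gm75 in the knockout than in any other group. The WT libraries held 197, 139 and 91 read ends at the site against neighbour means of 3583, 2170 and 1989. The knockout libraries held 648, 496 and 169 against 2929, 2054 and 780. Expressed as a share of the neighbour mean, this was 5.49% ± 0.916 in WT and 22.7% ± 1.32 in the knockout (SD, n = 3). The shares in siNT and siDHX15 were 3.31% ± 0.929 and 6.38% ± 1.51. Counting error alone gives a Poisson 95% interval of the score from 0.761 to 0.795 for the first knockout library and from 0.937 to 0.952 for the first WT library. In the shallowest library, the first of siDHX15, it ran from 0.866 to 0.958. The reads carry no molecular identifiers, and the intervals cover counting error only.

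No change was called at the positions around Gm75. U74, the base before it, had a ratio of read ends to its own neighbour mean of 1.33 ± 0.534 in WT and 1.34 ± 0.589 in the knockout. At C76, the base after it, the ratio was 0.807 ± 0.257 in WT and 1.09 ± 0.340 in the knockout, and the libraries overlapped. Of the 12 bases from U69 to C81 other than the site, none passed the position test described below.

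**Figure D2:**
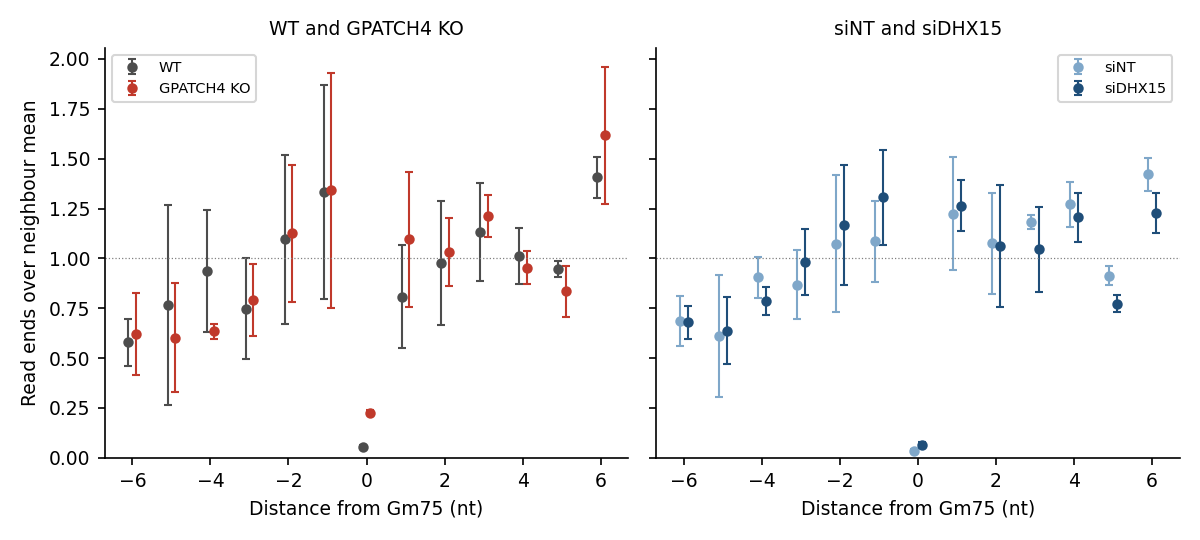
Read ends over the neighbour mean (mean and SD of 3 libraries) at Gm75 and the 6 positions on each side, against the distance from the site in nucleotides, for WT and knockout (left) and siNT and siDHX15 (right). The dotted line marks a ratio of 1. Only the site itself lies near 0 in all groups, at 0.0549 in WT, 0.227 in the knockout, 0.0331 in siNT and 0.0638 in siDHX15.

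A cut leaves the 3' end of the fragment before it and the 5' end of the fragment after it, so both kinds of ends can be scored separately. At Gm75 the score from 5' ends was 0.966, 0.960 and 0.967 in WT and 0.619, 0.670 and 0.711 in the knockout. From 3' ends it was 0.937, 0.926 and 0.945 in WT and 0.881, 0.790 and 0.810 in the knockout. Both kinds fell without overlap between the groups, and the fall was the larger from 5' ends, at 0.964 ± 0.00359 to 0.667 ± 0.0458, than from 3' ends, at 0.936 ± 0.00941 to 0.827 ± 0.0477 (SD, n = 3). The 5' end score minus the 3' end score went from 0.0285 in WT to -0.161 in the knockout, a change of -0.189. A two-sided exact permutation test of this gap gave p = 0.1, the smallest that 3 against 3 libraries allow, and 0.2 after Benjamini-Hochberg adjustment over the 2 comparisons made. Between siDHX15 and siNT the gap changed by 0.00793 (exact permutation p = 1). There the 5' end score rested on 1, 1 and 2 read 5' ends at Gm75 in siNT and 1, 3 and 12 in siDHX15. The size of that change is therefore poorly resolved. Over the 34 sites that were lower in the knockout and had both scores, the median change was -0.355 from 5' ends and -0.327 from 3' ends, and 16 of the 34 fell more from 5' ends. Of these 34 sites 4 had a 5' change minus 3' change more negative than the -0.189 of Gm75. Large gaps in the other direction were not counted.

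Um14 was weakly protected and variable, and no comparison passed at it. Its score was 0.334, 0.305 and 0.354 in WT and 0.420, 0.127 and 0.501 in the knockout. It was 0.0642, 0.260 and 0.0827 in siNT and 0.0757, 0.174 and 0.0856 in siDHX15. The knockout libraries lay on both sides of the WT libraries, and the siDHX15 libraries lay within the range of siNT. The group means were 0.350 ± 0.197 in the knockout, 0.331 ± 0.0245 in WT, 0.136 ± 0.108 in siNT and 0.112 ± 0.0544 in siDHX15 (SD, n = 3). All 3 WT libraries were above all 3 siNT libraries. By mean score Um14 ranked 135th of 141 sites in WT, 120th in the knockout, 137th in siNT and 139th in siDHX15.

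At Um14 the knockout minus WT difference was 0.0188 (95% interval -0.177 to 0.214, limma adjusted p 0.940). The siDHX15 minus siNT difference was -0.0238 (95% interval -0.219 to 0.172, limma adjusted p 0.885). The difference of these effects was 0.0426 (95% interval -0.234 to 0.319, limma adjusted p 0.825). These intervals include a fall as large as the one at Gm75, so the depth and spread here leave the size of any change at Um14 unresolved. The direction of the first comparison depended on single libraries. Without the first knockout library the difference was -0.0165, without the second 0.130 and without the third -0.0570. Without the replicates numbered 3 of every group it was -0.0455 (limma adjusted p 0.905), and the difference of effects was -0.00829. Without the second siNT library the siDHX15 difference was 0.0384. Of the 3 pairs of groups tested at Um14, the controls differed most, with siNT lower than WT by a limma difference of -0.195 (95% interval -0.391 to 0.000215, adjusted p 0.644).

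The position of Um14 near the 5' end of the RNA limits its measurement. No read 3' end fell on it in any of the 12 libraries, and a 3' end there would need a fragment shorter than the 20 to 40 nt kept for sequencing. Some shorter fragments were counted all the same, since WT replicate 1 held 20 read 3' ends at position 18 and 27 at position 19. The first position with a 3' end in any library was 15 and the first with one in every library was 25. The Um14 score therefore rests on 5' ends alone, and the same limit appears at the other end of the RNA, where the last position with a 5' end in every library was 129. The read ends at Um14 were 1510, 1303 and 4037 in WT, 913, 934 and 1533 in the knockout, 162, 161 and 294 in siNT and 54, 109 and 1068 in siDHX15. The neighbouring bases of Um14 were uneven too. G12 had a ratio of read ends to its neighbour mean of 0.995, 1.16 and 0.970 in WT and 1.09, 0.793 and 1.12 in the knockout, but 0.475, 0.582 and 0.316 in siNT and 0.409, 0.619 and 0.670 in siDHX15. G12 was thus lower in all 6 siRNA libraries than in all 6 others. G13 was at 0.526, 0.588 and 0.519 in WT and at 0.824, 0.801 and 0.852 in siNT, the opposite order. These 2 bases were picked after their values were seen, and both enter the neighbour mean of Um14.

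Scores of the size seen at Um14 were also found at bases with no listed methylation. Of the 140 scored 5.8S positions that the overview does not list, 24 had a higher mean score than Um14 in WT, 16 in the knockout, 58 in siNT and 65 in siDHX15. The median score over these unlisted positions was between 0.0889 and 0.112 in the 4 groups. Gm75 was exceeded by none of them in WT, siNT and siDHX15 and by 2 in the knockout. These 2 were G134, with a mean score of 0.880 from 89 read ends in 3 libraries, and C135, with 0.827 from 123 read ends. G134 and C135 were the unlisted positions with the highest scores in every group, at 0.652 and 0.734 in WT, 0.745 and 0.831 in siNT, and 0.807 and 0.778 in siDHX15.
They lie at the 3' end of an inverted repeat, shown with its 8-base arms in capitals because both bases lie in its 3' arm.
Positions 115 to 135: GCCCCGGGuuccuCCCGGGGC
The read ends at G134 were few, at 354 in WT, 33 in siNT and 43 in siDHX15 over 3 libraries. Of these, 316, 32 and 43 were 3' ends, whereas 51 of the 89 in the knockout were. The repeat was searched for after these scores were seen. Mean scores within its 3' arm ran from 0.0377 to 0.734 in WT and from 0 to 0.880 in the knockout. They ran from 0 to 0.831 in siNT and from 0 to 0.807 in siDHX15. High scores were thus not shared by the whole arm, and a link to the repeat was not tested.

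The bases differed in how often reads ended at them. In WT the median ratio of read ends to the neighbour mean was 1.17 over 31 unlisted U and 1.10 over 39 C, against 0.820 over 30 A and 0.785 over 40 G. C and U were also above A and G in the knockout (1.24 and 1.08 against 0.817 and 0.836), in siNT (1.13 and 1.03 against 0.926 and 0.824) and in siDHX15 (1.19 and 1.11 against 0.856 and 0.848). The ratio at Gm75 was far below the median of G in every group, whereas Um14, at 0.669 in WT and 0.864 in siNT, lay closer to that of U.

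Every position of 5.8S was then tested for a change in read ends relative to its neighbours, with edgeR's quasi-likelihood test fitted over 8009 positions of all RNAs. In the knockout 1 of the 142 tested 5.8S positions passed, and that was G75, with log2 2.04 more read ends relative to its neighbours (adjusted p 0.000100). Over all RNAs 28 of 8009 positions passed, which is 0.35%, with 0.337% gaining and 0.0125% losing read ends. With DESeq2, and with edgeR on 5' ends alone, C32 was called as well. Its ratio was 1.09 in WT and 1.77 in the knockout, and the libraries did not overlap (1.07 to 1.12 against 1.52 to 1.97), but it did not pass in the edgeR test of both kinds of ends (log2 0.69, adjusted p 0.103). With 3' ends alone, and with the library index as a block, G75 did not pass either (edgeR adjusted p 0.240 and 0.182). The index is the base code that opens each library name in the headers. WT and knockout libraries share no index, so this block compares them only through siRNA libraries with the same codes. The ratios of the 2 groups did not overlap at 12 of the 142 positions, or 8.45%, close to the 9.96% over all tested positions.

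Between siDHX15 and siNT none of the 142 positions passed the edgeR test, and none passed with DESeq2 or with limma on the log2 ratios. At an unadjusted p under 0.05 there were 2 positions in the edgeR test, against 14 for the knockout. Over all RNAs 26 of 8009 positions, or 0.325%, passed, all with more read ends. The smallest p at 5.8S was again at G75, with a log2 difference of 0.92 (p 0.0101, edgeR adjusted p 1.00). G46 followed with log2 0.57 and U111 with log2 -0.61. Groups did not overlap at 8.45% of the 5.8S positions, against 9.38% over all positions tested.

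**Figure D3:**
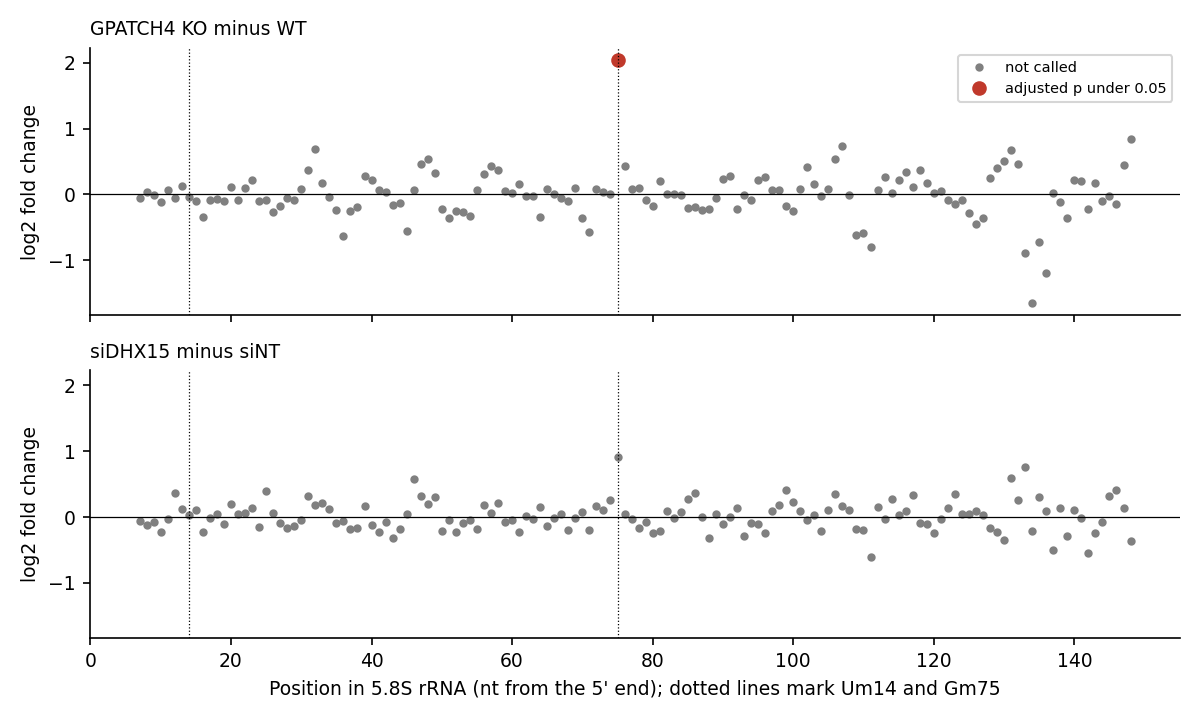
Fitted log2 fold change (edgeR) in read ends relative to neighbours at the 142 tested positions, against position in 5.8S, for knockout minus WT (top) and siDHX15 minus siNT (bottom). G75, at 2.04, is the only position called in the upper panel, and none is called in the lower one, where G75 is at 0.92.

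The sites whose scores most resembled those of Gm75 over the 12 libraries lay on other RNAs. By root mean square difference of the score they were 28S-Am3785 (0.0325), 28S-Gm3792 (0.0429) and U2-Um47 (0.0443). Their knockout minus WT differences were -0.122, -0.180 and -0.196, with limma adjusted p of 0.000316, 0.00279 and 9.28e-05. Between siDHX15 and siNT their limma adjusted p were 0.0732, 0.130 and 0.103. They were chosen for their likeness over these same libraries, so these values describe them and are no separate evidence. For Um14 the closest were 28S-Um2043 (0.192), 28S-Am1323 (0.205) and 18S-Cm1440 (0.210).

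The share of all read ends that lay on 5.8S differed between the groups. It was 3.13%, 3.20% and 3.73% in WT and 2.77%, 2.63% and 3.06% in the knockout. It was 2.32%, 2.28% and 2.72% in siNT and 1.97%, 2.28% and 2.10% in siDHX15. The knockout libraries all lay below the WT libraries and the siNT libraries all lay below the WT libraries, whereas siNT and siDHX15 overlapped through their replicates 2. The means were 3.35% ± 0.331, 2.82% ± 0.215, 2.44% ± 0.245 and 2.11% ± 0.157 in WT, knockout, siNT and siDHX15 (SD, n = 3). Wilson 95% intervals of a single library were at most 0.0291 percentage points wide on each side, so counting error was far below the spread between replicates.

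Two-sided exact permutation tests of 3 against 3 libraries gave p = 0.1 for the knockout against WT (a difference of -0.531 points) and p = 0.1 for siNT against WT (-0.914 points). Both are the smallest p possible and 0.15 after adjustment over the 3 comparisons. For siDHX15 against siNT the difference was -0.324 points, with an exact permutation p of 0.2. Without WT replicate 3 the knockout difference was -0.340 points, and without siNT replicate 3 the siDHX15 difference was -0.182 points. None of the 3 shares thus passed 0.05, which this design cannot reach. The share is relative to the other RNAs in a library and does not tell less 5.8S RNA from fewer fragments kept per molecule. Per position, 5.8S held 1.16 ± 0.118 times the read ends of 18S in WT, 1.00 ± 0.122 in the knockout, 0.844 ± 0.0940 in siNT and 0.701 ± 0.0611 in siDHX15 (SD, n = 3). Against 28S the corresponding ratios were 1.84, 1.51, 1.32 and 1.18.

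**Figure D4:**
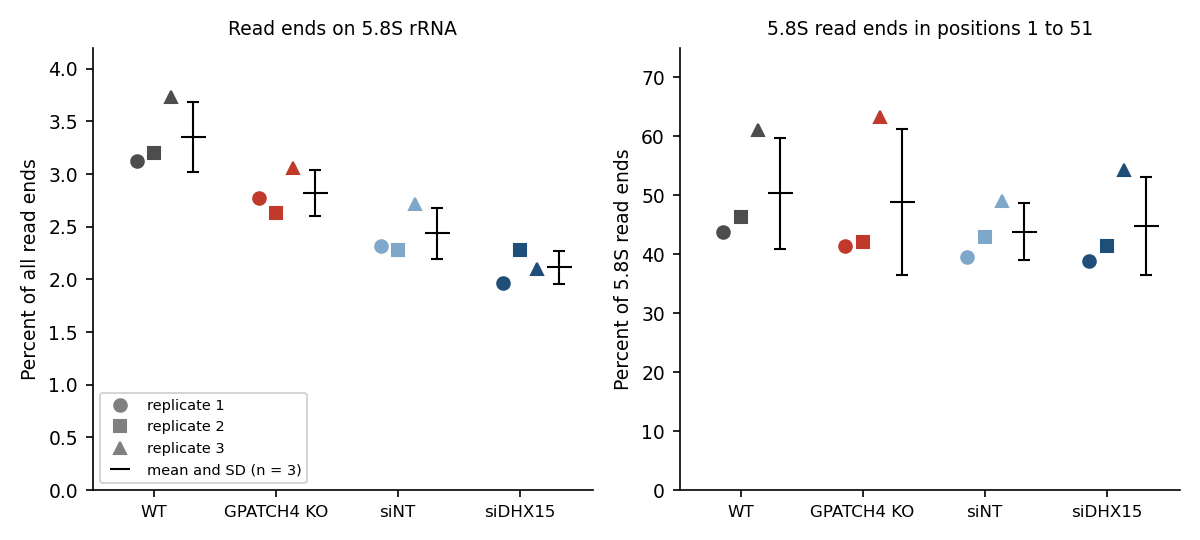
Read ends on 5.8S as a percentage of all read ends (left) and read ends in positions 1 to 51 as a percentage of those on 5.8S (right), for each library with the mean and SD of 3. On the left WT sits highest, at 3.13% to 3.73%, and on the right the replicate numbered 3 is the highest library of every group.

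Few of the read ends on 5.8S lay on the 3' side of the RNA. Positions 1 to 51 held 50.3% ± 9.37 of the 5.8S read ends in WT, 48.9% ± 12.4 in the knockout, 43.8% ± 4.79 in siNT and 44.8% ± 8.29 in siDHX15 (SD, n = 3). Positions 52 to 102 held 39.6% ± 9.51, 40.2% ± 9.42, 44.0% ± 5.71 and 43.1% ± 7.88 in the same order. Positions 103 to 154 held 10.1%, 10.9%, 12.2% and 12.1%. The groups overlapped, and most of the spread came from the replicate numbered 3, which had the largest share in positions 1 to 51 in each group. That share was 43.7%, 46.2% and 61.0% in WT, 41.4%, 42.1% and 63.2% in the knockout, 39.6%, 42.8% and 49.0% in siNT and 38.8%, 41.3% and 54.2% in siDHX15. With those libraries left out of every group, the share of read ends on 5.8S differed by -0.458 points between knockout and WT, -0.865 between siNT and WT and -0.174 between siDHX15 and siNT, with 2 libraries in each group.

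**Figure D5:**
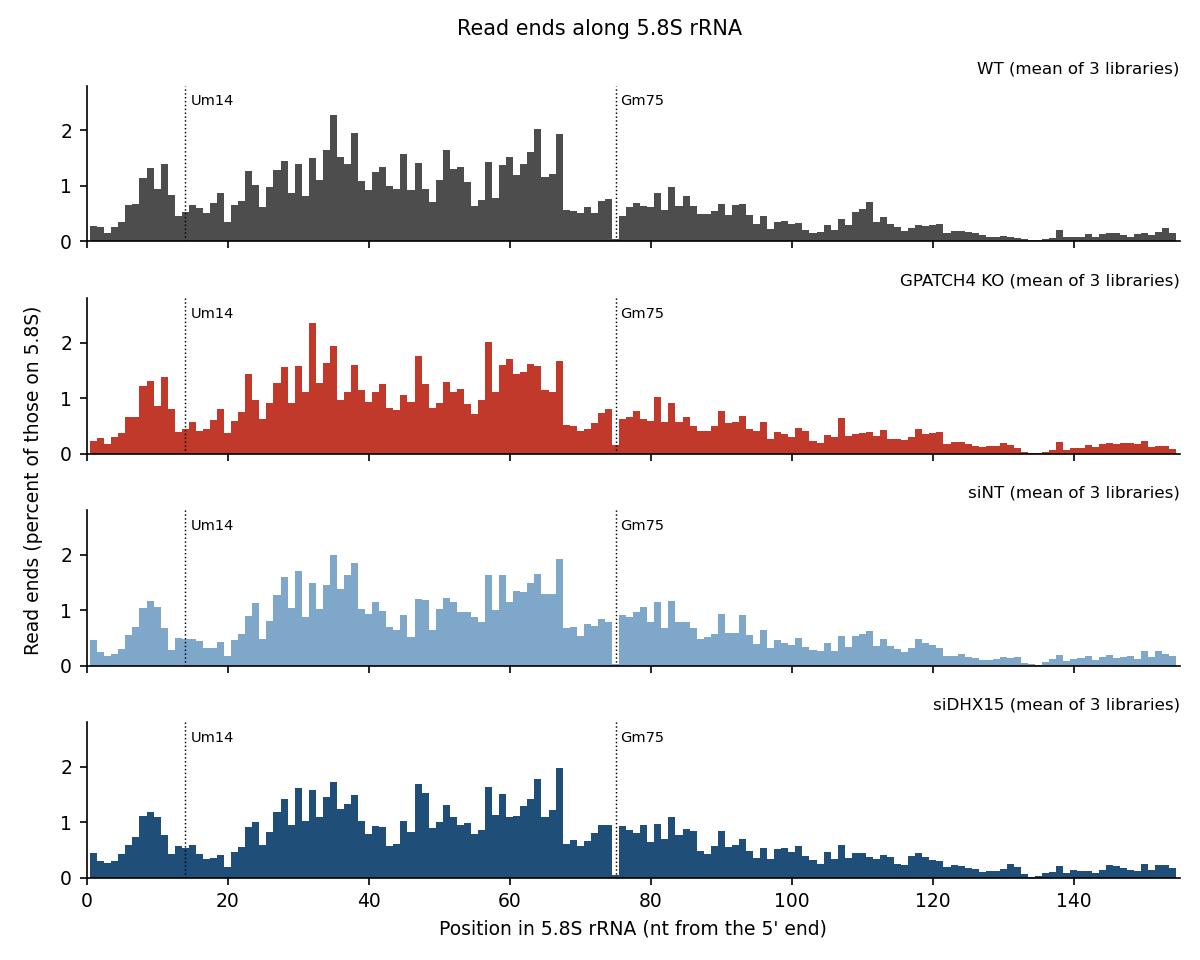
Read ends at each position as a percentage of those on 5.8S (mean of 3 libraries) in the 4 groups, with Um14 and Gm75 marked by dotted lines. Gm75 forms a gap in every group that is shallower in the knockout, Um14 forms none that stands out, and positions 103 to 154 hold between 10.1% and 12.2% of the read ends.

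The pattern of read ends along the RNA was correlated between libraries, as a description over 142 positions that share a sequence. Pearson's r of the log2 ratios was between 0.441 and 0.907 among WT libraries, 0.574 and 0.836 among knockout libraries, 0.752 and 0.788 in siNT and 0.702 and 0.805 in siDHX15. Between WT and knockout libraries it ran from 0.234 to 0.872, so that replicates of one group could differ more than libraries of different groups. No 2 replicate libraries of a group agreed within counting error over the 154 positions (chi-square of 4.76 to 646 per degree of freedom, which takes read ends as independent), and each was counted as a separate sample.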

How the data were processed

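RiboMeth-seq tables of 12 libraries in 4 groups of 3 were used. Per the file headers, the deposited tables hold whole-number counts of read 5' and 3' ends per position. They also hold the authors' score, a fraction, of which the authors' overview gives group means and SDs (not used for tests). Per the labels' protocols, fragments of 20 to 40 nt were taken for Ion Proton sequencing. Cutadapt 2.0, Bowtie2 2.3.4.1 and hg38 appear, without their roles, per the submitters' processing notes. The score formula, tested on the deposited counts, gave the authors' score at all 8044 positions with 6 neighbours on each side (tolerance 1e-06). No 5.8S score had been recalculated by the authors. At 8 snRNA sites their recalculated values were used in the fit. In all, 36 columns of per-sample values were not used.

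Scores of 141 sites were fitted with limma 3.58.1 (R 4.3.3), with 4 group means over 12 libraries and two-sided tests. Read-end counts at 8009 positions with a neighbour mean of at least 10 were fitted with edgeR 4.0.16, with the log of the neighbour mean plus 1 as offset. DESeq2 1.42.0 was an alternative. Benjamini-Hochberg adjustment ran over all sites or positions at 0.05. Single values were compared by exact permutation tests (scipy 1.17.1). The limma fit of sites and the edgeR fit of positions were tested on simulated data for knockout minus WT. The position test recovered 57% of 2-fold and 99% of 4-fold changes, with 8 false calls. The site test recovered 93.3% of scores lowered by 0.3, with 2 false calls. Recovery in the shallower comparison of siDHX15 with siNT was not simulated. Both sites are named in every comparison, with positions that passed the test without overlap (else the 3 smallest p) and the 3 sites of most similar score. Members, rules and lists were chosen with earlier results of these data known.

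Across sites, deviations of same-numbered replicates had r of 0.117, 0.160 and 0.166 between siNT and siDHX15. Between WT and knockout they had 0.120, 0.0459 and -0.000863. Differently numbered pairs ran from -0.301 to 0.150 and from -0.197 to 0.120, so the 2 kinds of pairs overlapped in range or nearly so. Between siNT and siDHX15 all same-numbered r were positive, and 0.160 and 0.166 were above all differently numbered pairs. Across the 142 scored 5.8S positions, same-numbered pairs of siNT and siDHX15 had 0.143, 0.278 and 0.325, above all differently numbered pairs (-0.314 to 0.0263). Same-numbered pairs of WT and knockout had 0.207, 0.576 and 0.647. The differently numbered ones ran from -0.625 to 0.454, the highest between WT replicate 1 and knockout replicate 2. Across the 2 experiments, same-numbered pairs had -0.00355, 0.605 and 0.527 for WT and siNT and 0.135, 0.0557 and 0.214 for WT and siDHX15. Knockout libraries had 0.300, 0.378 and 0.259 with siNT and -0.0705, -0.0530 and 0.354 with siDHX15. Differently numbered pairs reached 0.391, 0.207, 0.0350 and 0.384 in the same order. The labels give no further link between same-numbered libraries.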

Additional observations from a re-analysis of the deposited data

Results flagged for a closer look

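At Gm75 of the 5.8S rRNA the effects of GPATCH4 knockout and of siRNA against DHX15 differed by a direct test. The knockout difference (-0.172 against WT) was more negative than the siDHX15 difference (-0.0308 against siNT) by -0.141 on the score scale (limma, adjusted p 0.000378 over 141 sites). All 3 knockout libraries were below all 3 WT libraries and all 3 siDHX15 libraries below all 3 siNT libraries. The difference lost its call with edgeR on the counts (adjusted p 0.0548), with limma on the logit scale (0.0507) and with 3' ends alone (0.213). Its cause was not tested.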

How the results depend on the processing

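The decrease at Gm75 in the knockout kept its direction and its call in all 27 alternatives, with score differences from -0.298 (5' ends alone) to -0.109 (3' ends alone) and adjusted p from 1.09e-06 to 0.0198. Some alternatives, such as leaving out a library of the groups not compared, could not change the difference itself, only its error. With the replicate number as a block its limma adjusted p was 7.3e-05, and the block changed no call at either site or at any 5.8S position. Over all RNAs the block raised the positions called from 28 to 35 in the knockout and from 26 to 28 in siDHX15. For siDHX15 minus siNT, Gm75 was called by edgeR (log2 difference of -0.92, signed as the score) and on the logit scale (-0.695), and centring each library reversed it (0.0384, adjusted p 0.0882). The difference of effects at Gm75 lost its call with edgeR (-1.12), on the logit scale (-0.930) and with 3' ends alone (-0.0758, adjusted p 0.213). At Um14 the knockout difference reversed on the logit scale (-0.0409) and with 2 neighbours (-0.00720), ranged from -0.0570 to 0.130 with single libraries left out, and was -0.0455 without replicate 3 of every group. The siDHX15 difference at Um14 reversed with centred libraries (0.0453), thinned libraries (0.0276) and the library index as a block (0.0606), and ranged from -0.0596 to 0.0384 with libraries left out. Groups compared within an experiment share no index, so the index block rests on libraries of the other experiment. The difference of effects at Um14 ranged from -0.0332 to 0.154 with libraries left out and was -0.00829 without replicate 3 of every group. With edgeR on the sums of each RNA, 5.8S was called lower in siNT than in WT (no further scaling, log2 -0.46, adjusted p 0.00653). It was also called lower in siDHX15 than in siNT with TMM scaling (edgeR log2 -0.46, adjusted p 0.0106). TMM rescales the library sizes, so that log2 value is not the change in the share of all read ends. The mean share was 2.44% in siNT and 2.11% in siDHX15, a smaller fall. In the knockout the number of 5.8S positions called was 2 with 5' ends alone, 0 with 3' ends alone, 2 with DESeq2 and 0 with the library index as a block. The causes were not tested. Leaving out replicate 3 of every group, leaving out single libraries of the other experiment and the index block for positions were chosen after seeing the data. Um14 has no score from 3' ends. Depth limits Gm75 most in the siRNA libraries, where 10 to 38 read ends lay on it.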
